A study of Mus musculus with 2 samples.

Results

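The genes described here are the nuclear-encoded subunits of the oxidative phosphorylation machinery, measured in the femoral growth plate of mouse embryos without *Tric-b*. Members were taken by a rule on symbols alone, chosen with earlier results of these data known. A probe set was taken when it was annotated to 1 gene whose symbol began with Nduf and a, b, c, s or v before a number, with Uqcr, with Cox and a digit from 4 to 8, or with Atp5, or was one of *Sdha*, *Sdhb*, *Sdhc* and *Sdhd*. This gave 164 of 45037 probe sets and 81 of 18193 named genes. By symbol, 35 genes belonged to complex I, 4 to complex II, 8 to complex III, 17 to complex IV and 17 to complex V.

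There were 2 Affymetrix mouse genome arrays, with 1 array per zone. The columnar/hypertrophic array was hybridized with RNA from the growth plate section of columnar and hypertrophic chondrocytes, and the round array with RNA from the section rich in round chondrocytes. Both specimens came from E17.5 embryos labelled C57BL/6J, 129Sv and Tric-b-KO, and each RNA was a mixture of 3 preparations. Both carry the knockout, and wild-type cartilage was not analysed here. Every difference is therefore one between zones of knockout cartilage, without a replicate check, a test or a p-value.

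Oxidative phosphorylation is carried out in the inner mitochondrial membrane. Complex I takes electrons from NADH and complex II from succinate, complex III passes them to cytochrome c, and complex IV passes them to oxygen. Complexes I, III and IV pump protons, and complex V, the ATP synthase, uses the proton gradient to make ATP. Most subunits are encoded in the nucleus and a small group in mitochondrial DNA. Growth plate cartilage has no blood vessels, and its chondrocytes are known for a strong reliance on glycolysis.

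The deposited signals were on a linear scale and were used without further scaling. The 40th percentile of all signals, 65.9, served as a floor, and signals under it were not distinguished from each other. Differences are log2 signals of the columnar/hypertrophic array minus those of the round array, and the brightest probe set by mean log2 signal stood for each gene. Means after trimming 2% at each end were 496 in the columnar/hypertrophic zone against 497 in the round zone. The zone labels were checked with marker genes. All 8 columnar and prehypertrophic markers exceeded the round signal by 2-fold or more, and 6 of 7 markers of round or resting chondrocytes were 2-fold or more lower in the columnar/hypertrophic array. Of 4 compared hypertrophic markers, 3 exceeded the round signal by 2-fold or more. The fourth, *Vegfa*, was lower, with 1877 in the columnar/hypertrophic zone against 3095 in the round zone, and *Mmp13* was under the floor in both arrays.

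Most oxidative phosphorylation subunits had a higher signal in the columnar/hypertrophic specimen, by a small amount. Of the 77 member genes above the floor in at least 1 array, 69 were higher and 8 lower in the columnar/hypertrophic array. Of all 12761 compared genes, 46.8% were higher and 53.2% lower. The median log2 difference was 0.33, which is 1.26-fold, against -0.04 over all genes compared. The quartiles were 0.18 and 0.43 for the members, and -0.38 and 0.26 for all genes. Differences of 1.5-fold or more were found for 13 members higher in the columnar/hypertrophic zone, where the share of all genes was 10.4%, and for 1 lower, where it was 15.3%. Only *Uqcrq* reached 2-fold, a size that 4.28% of all genes reached in that direction, and no member was 2-fold lower, against 6.25% of all genes. RNA was taken from whole sections, so more cells of a kind and more RNA per cell cannot be told apart.

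**Figure D1:**
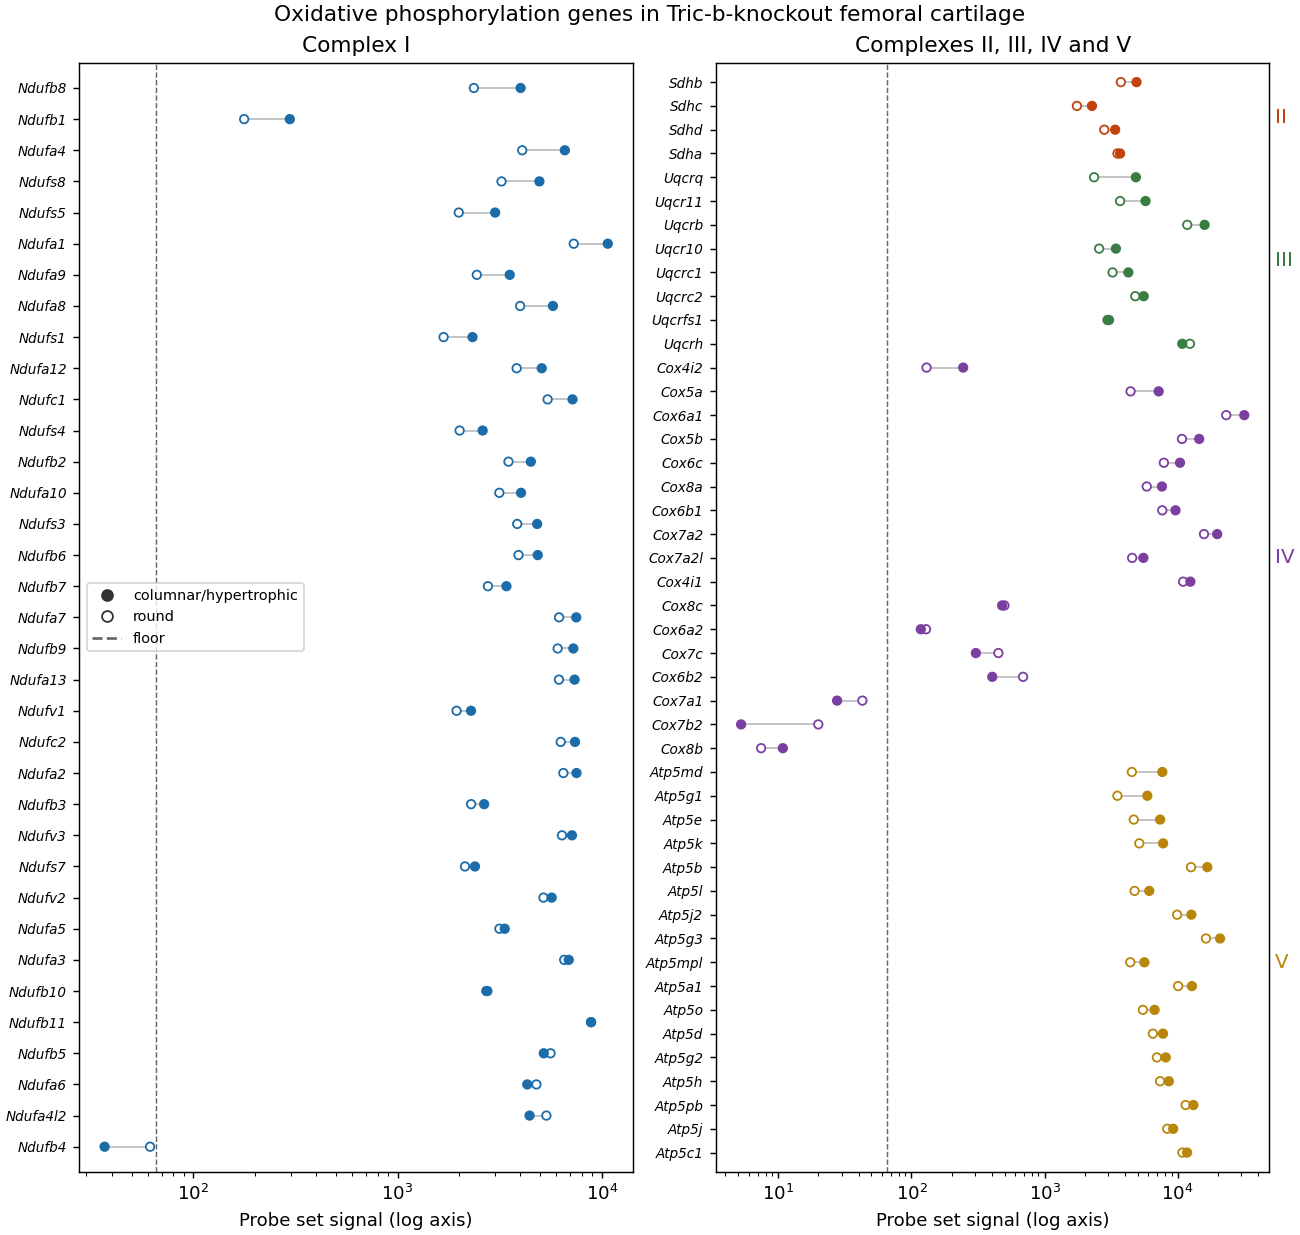
Probe set signals (log axis) of all 81 member genes in the columnar/hypertrophic array (filled circles) and the round array (open circles), 1 array per zone, ordered within each complex by log2 difference. A dashed line marks the floor of 65.9, and the genes with both circles left of it, *Ndufb4*, *Cox7a1*, *Cox7b2* and *Cox8b*, were not compared. Signals of different genes come from different probes and are not ranked.

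The members were bright on both arrays. Of the 77 compared genes, 71 had a mean signal of at least 1000, and these ranged from 1682 to 31670. Among the 71, 67 were higher in the columnar/hypertrophic zone, with a median of 0.33. Of the 4184 other genes with a mean signal of at least 1000, 56.2% were higher there, and their median was 0.06. At 1.5-fold, 11 of the 71 members were higher and 0 lower, where 9.92% of the other bright genes were higher and 7.48% lower. The 6 dimmer members, *Ndufb1*, *Cox4i2*, *Cox6a2*, *Cox6b2*, *Cox7c* and *Cox8c*, were divided, with 2 higher and 4 lower and a median of -0.09.

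Bright probe sets as a whole leaned toward the columnar/hypertrophic array. A lowess trend over all compared probe sets lay between 0.03 and 0.18 at the signals of the 71 bright members. With this trend removed, the median over the 77 members was 0.19, and 62 were higher, where 51.3% of all genes were higher. Quantile normalization gave a median of 0.20, with 63 members higher. Across the deposited, median-centred, quantile-normalized and lowess-centred values, 60 members were higher in the columnar/hypertrophic zone under all 4 scalings, 6 were lower under all 4 and 11 changed sides. At 1.5-fold, 6 of the 77 members were higher and 1 lower under both quantile normalization and lowess centring. Over all genes, 1633 of 12762 were 1.5-fold higher and 1522 lower after quantile normalization. After lowess centring, 1663 of 12761 were higher and 1471 lower. Under both, the share of members that were 1.5-fold higher was below that of all genes. A 1.5-fold higher signal under all 4 scalings was kept by 6 genes, *Uqcrq*, *Cox4i2*, *Ndufb1*, *Ndufb8*, *Atp5g1* and *Atp5md*.

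**Figure D2:**
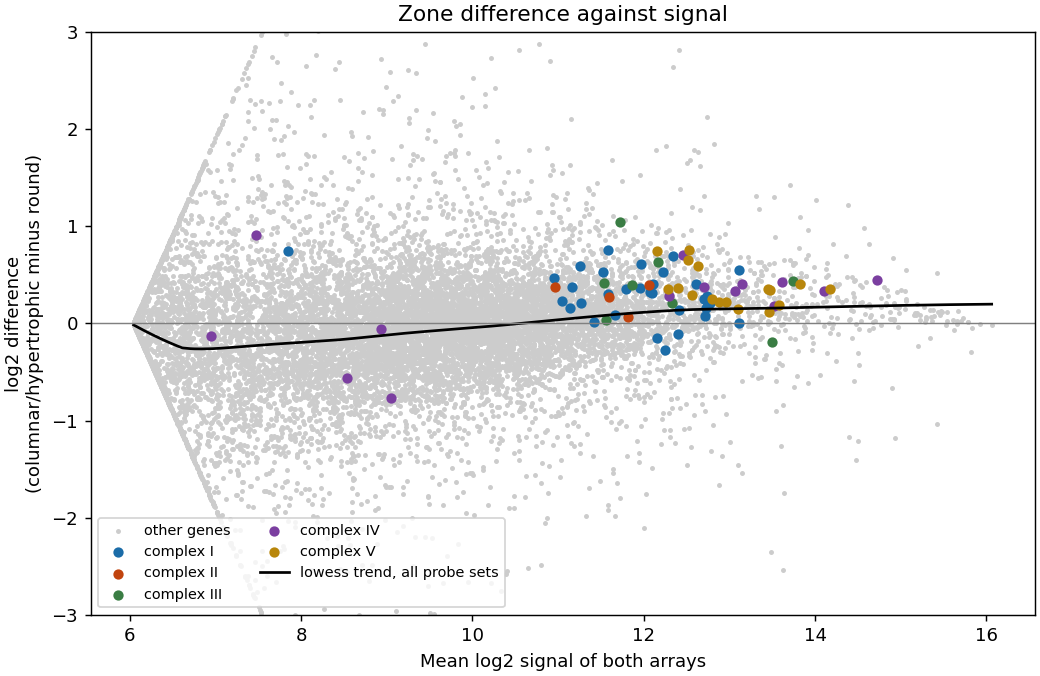
Log2 difference, columnar/hypertrophic minus round, of each compared gene against its mean log2 signal, with members coloured by complex, other genes in grey and the lowess trend over all compared probe sets as a line. Most members sit in the bright part, above the trend, which is between 0.03 and 0.18 there. The axis ends at -3 and 3 and leaves out 81 genes.

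Probe sets of the same gene gave the only repeated measurement. Within a member, probe sets varied in their log2 difference with a pooled SD of 0.24 over 42 genes, and 0.10 over 36 genes when the mean signal of each probe set was at least 1000. It was 0.34 over 5446 genes of the whole array. These SDs hold no variation between animals or preparations. In 36 members with several bright probe sets, all of them were higher in the columnar/hypertrophic zone for 31 genes, all were lower for 2 and they were divided for 3. When all compared probe sets were counted, dim ones included, 29 of 46 members had all higher, 3 had all lower and 14 were divided. Of the 152 compared member probe sets, 127 were higher, against 42.4% of all probe sets. At 1.5-fold, 22 were higher and 6 lower, against 9.41% and 17.4% of all probe sets.

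Complex I, the NADH dehydrogenase, had a median log2 difference of 0.29, with 31 of 34 compared genes higher in the columnar/hypertrophic zone (27 after quantile normalization and 26 after lowess centring). By their brightest probe sets, the measured genes of its electron-carrying core were on that side as deposited. Of these, *Ndufv2* changed sides under other scalings. *Ndufv1*, whose product binds the flavin that accepts electrons from NADH, had a signal of 2290 in the columnar/hypertrophic zone against 1946 in the round zone. Its 3 probe sets gave 0.03 to 0.23 on the log2 scale. *Ndufs1*, an iron-sulfur subunit, had 2329 in the columnar/hypertrophic zone against 1682 in the round zone, a log2 difference of 0.47. *Ndufs8*, which carries further iron-sulfur clusters, had 4952 in the columnar/hypertrophic zone against 3230 in the round zone. All of its 6 probe sets were higher, by 0.58 to 0.83 on the log2 scale.

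The core genes *Ndufs3*, *Ndufs7* and *Ndufv2* had log2 differences of 0.32, 0.16 and 0.13. Another bright probe set of *Ndufv2* was lower as deposited, with 3109 in the columnar/hypertrophic zone against 3393 in the round zone.

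Most other complex I genes encode accessory subunits. *Ndufb8*, of the membrane arm, had a signal of 4007 in the columnar/hypertrophic zone against 2365 in the round zone, 1.69-fold. Its second probe set was dim and gave 136 and 143 in the same order, a log2 difference of -0.07. *Ndufb1* had 297 in the columnar/hypertrophic zone against 177 in the round zone, and *Ndufs5* had 3007 in the columnar/hypertrophic zone against 1995 in the round zone. Both were at least 1.5-fold higher as deposited, and *Ndufs5* was at 0.54 after quantile normalization and 0.53 after lowess centring, under that size. On the other side, *Ndufa6* had 4318 in the columnar/hypertrophic zone against 4787 in the round zone, and *Ndufb5* had 5201 in the columnar/hypertrophic zone against 5615 in the round zone. *Ndufa6* and *Ndufb5* were lower in the columnar/hypertrophic array under all 4 scalings.

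A further group of complex I genes lay just under 1.5-fold. *Ndufa1*, encoding a small membrane subunit, had 10702 in the columnar/hypertrophic zone against 7292 in the round zone. *Ndufa9*, whose product sits beside the junction of both arms, had 3544 in the columnar/hypertrophic zone against 2445 in the round zone, and *Ndufa8* had 5767 in the columnar/hypertrophic zone against 3986 in the round zone. Their log2 differences were 0.55, 0.54 and 0.53, and just above the size stood *Ndufs5* with 0.59. Near 0 were *Ndufb11*, with 8867 in the columnar/hypertrophic zone against 8864 in the round zone, and *Ndufb10*, with 2756 in the columnar/hypertrophic zone against 2720 in the round zone. *Ndufb4* was not compared, at 36.8 in the columnar/hypertrophic zone against 61.5 in the round zone.

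Complex II, the succinate dehydrogenase of the citric acid cycle, had all 4 genes higher, with a median of 0.32, although *Sdha* changed sides under quantile normalization and lowess centring. *Sdhb*, the iron-sulfur subunit, had a signal of 4910 in the columnar/hypertrophic zone against 3743 in the round zone, a log2 difference of 0.39. *Sdha*, the flavoprotein that oxidizes succinate, had 3695 in the columnar/hypertrophic zone against 3532 in the round zone, and its log2 difference of 0.07 was -0.03 after quantile normalization. A dimmer probe set of *Sdha* gave 162 in the columnar/hypertrophic zone against 290 in the round zone, so its probe sets differed by more than 1 on the log2 scale. *Sdhc*, a membrane anchor, had 2270 in the columnar/hypertrophic zone against 1751 in the round zone on one probe set, and 1147 and 1194 in the same order on the other.

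Complex III, the cytochrome bc1 complex, had a median of 0.41, with 7 of 8 genes higher as deposited and 6 after quantile normalization or lowess centring. *Uqcrq*, a small subunit of the membrane part, had a signal of 4856 in the columnar/hypertrophic zone against 2356 in the round zone, 2.06-fold. This rests on 1 bright probe set. The other 3 had signals from 22.2 to 78.0, close to the floor, and gave bounds of 0.01 and -0.24 where they could be compared. *Uqcr11*, another small subunit, had 5741 in the columnar/hypertrophic zone against 3696 in the round zone, 1.55-fold. *Uqcrc1* and *Uqcrc2* encode the core proteins. *Uqcrc1* had 4260 in the columnar/hypertrophic zone against 3245 in the round zone, and *Uqcrc2* had 5557 in the columnar/hypertrophic zone against 4805 in the round zone. *Uqcrb*, the ubiquinol-binding protein, had 15941 in the columnar/hypertrophic zone against 11807 in the round zone, a log2 difference of 0.43. Its other probe set, also bright, gave 3159 and 2871 in the same order, a log2 difference of 0.14. *Uqcrfs1*, the Rieske iron-sulfur protein that passes electrons on toward cytochrome c, had 3048 in the columnar/hypertrophic zone against 2973 in the round zone, a log2 difference of 0.04 that turned to -0.04 after quantile normalization. *Uqcrh*, the hinge protein, was the lower gene, with 10837 in the columnar/hypertrophic zone against 12376 in the round zone, and it was lower under all 4 scalings. Without probe sets marked as able to match several transcripts, the complex III median was 0.04 over 6 genes. That setting leaves out *Uqcrc1* and *Uqcrc2*. It also puts *Uqcr10* and *Uqcrq* on dim probe sets, at 0.03 and at a bound of -0.24, and *Uqcrb* on its other bright one, at 0.14.

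Complex IV, cytochrome c oxidase, had genes on both sides, with 10 of 14 compared genes higher as deposited, 12 after quantile normalization or lowess centring, and a median of 0.33. Log2 differences ran from -0.77 for *Cox6b2* to 0.91 for *Cox4i2*. *Cox5a*, a subunit of the matrix side, had a signal of 7202 in the columnar/hypertrophic zone against 4429 in the round zone. All of its 3 probe sets were higher, by 0.70 to 0.83 on the log2 scale. *Cox5b*, which binds zinc, had 14521 in the columnar/hypertrophic zone against 10776 in the round zone, and *Cox6c* had 10418 in the columnar/hypertrophic zone against 7879 in the round zone. *Cox7c* had only dim probe sets, and the brighter gave 305 in the columnar/hypertrophic zone against 450 in the round zone, a log2 difference of -0.56.

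Complex V, the ATP synthase, had all 17 genes higher as deposited, with a median of 0.35, and 15 under quantile normalization or lowess centring, where *Atp5c1* and *Atp5j* changed sides. *Atp5c1*, encoding the γ subunit of the central stalk, had 11775 in the columnar/hypertrophic zone against 10870 in the round zone, a log2 difference of 0.12. *Atp5b*, encoding the catalytic β subunit, had a signal of 16709 in the columnar/hypertrophic zone against 12603 in the round zone. *Atp5a1*, encoding the α subunit, had 12806 in the columnar/hypertrophic zone against 10084 in the round zone, with 0.05 to 0.34 on the log2 scale over 3 probe sets. At least 1.5-fold higher were *Atp5e* (ε subunit), *Atp5k* and *Atp5md*, which are small membrane subunits, and *Atp5g1*. *Atp5md* had 7672 in the columnar/hypertrophic zone against 4529 in the round zone, 1.69-fold. *Atp5e* had 7388 in the columnar/hypertrophic zone against 4682 in the round zone, 1.58-fold. *Atp5k* had 7777 in the columnar/hypertrophic zone against 5153 in the round zone, and log2 differences from 0.43 to 0.65 on its 3 probe sets.

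**Figure D3:**
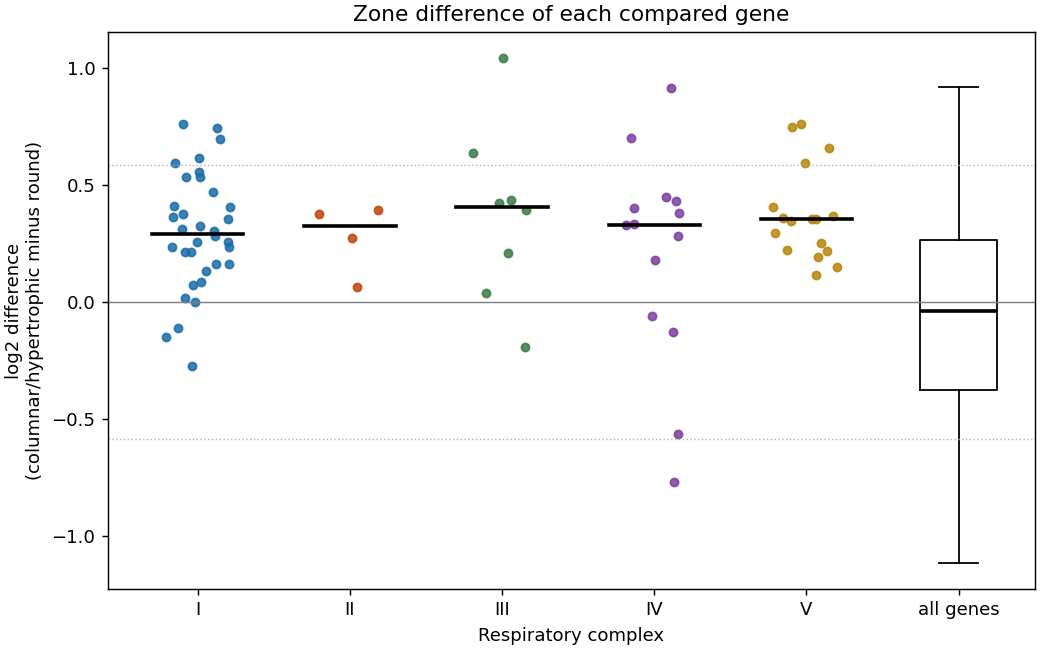
Log2 difference, columnar/hypertrophic minus round, of each compared member gene by complex, with black lines at the medians of 0.29, 0.32, 0.41, 0.33 and 0.35 for complexes I to V. The box shows all 12761 compared genes, with the median of -0.04, the quartiles and whiskers at the 5th and 95th percentiles, and dotted lines mark 1.5-fold. All complex V genes lie above 0 in these deposited values, and the lower genes of complex IV reach -0.77.

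Several subunits exist in isoforms that replace each other by tissue or condition, and the isoforms did not all lie on the same side. NDUFA4, named for complex I and later assigned to complex IV, and its relative NDUFA4L2, known as a hypoxia-inducible protein, were opposite. *Ndufa4* had a signal of 6597 in the columnar/hypertrophic zone against 4080 in the round zone, a log2 difference of 0.69. *Ndufa4l2* had 4433 in the columnar/hypertrophic zone against 5358 in the round zone, a log2 difference of -0.27. Each gene has 1 probe set here, and both kept their side under all 4 scalings. *Cox4i1*, the general form of subunit 4, had 12463 in the columnar/hypertrophic zone against 10997 in the round zone, a log2 difference of 0.18. *Cox4i2*, the form associated with lung and with hypoxia, had 245 in the columnar/hypertrophic zone against 130 in the round zone, 1.88-fold. Its 1 probe set lies near the floor, and the difference was a bound of 0.24 when the 60th percentile served as the floor.

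*Ndufa4l2* and *Cox4i2* are also studied as targets of the hypoxia-inducible factor HIF. Beside them, 6 of 9 other hypoxia-linked genes were higher in the columnar/hypertrophic zone, with a median of 0.33 (0.26 after quantile normalization and 0.15 after lowess centring). As deposited, 46.8% of all compared genes were higher there, and 56.2% of genes outside the members with a mean signal of at least 1000. *Slc2a1*, a glucose transporter gene, had 12064 in the columnar/hypertrophic zone against 7497 in the round zone. *Ldha*, encoding a lactate dehydrogenase subunit, had 37034 in the columnar/hypertrophic zone against 29252 in the round zone. *Egln3*, encoding a HIF prolyl hydroxylase, had 795 in the columnar/hypertrophic zone against 1283 in the round zone. Also lower were *Hif1a*, with 8958 in the columnar/hypertrophic zone against 11342 in the round zone, and *Pdk1*, with 4833 and 5224 in the same order.

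The general isoforms of subunits 6a, 6b, 7a and 8 of complex IV were bright and higher. *Cox6a1* had a signal of 31670 in the columnar/hypertrophic zone against 23186 in the round zone, a log2 difference of 0.45. *Cox6b1* had 9639 in the columnar/hypertrophic zone against 7665 in the round zone. *Cox7a2* had 19829 in the columnar/hypertrophic zone against 15774 in the round zone, and *Cox8a* had 7624 in the columnar/hypertrophic zone against 5860 in the round zone. *Cox7a2l*, whose product takes part in joining complexes III and IV into supercomplexes, had 5528 in the columnar/hypertrophic zone against 4552 in the round zone.

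The testis isoform gene *Cox6b2* differed from its partner in direction, with 404 in the columnar/hypertrophic zone against 690 in the round zone. This 1.70-fold difference, log2 -0.77, was from -0.68 to -0.65 under the other scalings. The heart and skeletal muscle isoforms were at or near the floor. *Cox6a2* had 118 in the columnar/hypertrophic zone against 129 in the round zone, and *Cox7a1* and *Cox8b* were under the floor in both. Of 10 skeletal muscle markers, 5 were above the floor in the columnar/hypertrophic zone against 4 in the round zone, with summed signals of 1548 and 1121 in that order. *Cox7b2* was also under the floor in both arrays. *Cox8c* had 480 in the columnar/hypertrophic zone against 499 in the round zone on one probe set, and its other was at 165 in the columnar/hypertrophic array and under the floor in the round array.

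The 3 genes *Atp5g1*, *Atp5g2* and *Atp5g3* encode the same mature c subunit of the ATP synthase rotor and differ in the leader peptide. *Atp5g1* had a signal of 5920 in the columnar/hypertrophic zone against 3527 in the round zone, a log2 difference of 0.75. *Atp5g2* had 8138 in the columnar/hypertrophic zone against 6990 in the round zone, a log2 difference of 0.22. *Atp5g3* had 20843 in the columnar/hypertrophic zone against 16325 in the round zone, a log2 difference of 0.35. All 3 were higher under all 4 scalings.

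**Figure D4:**
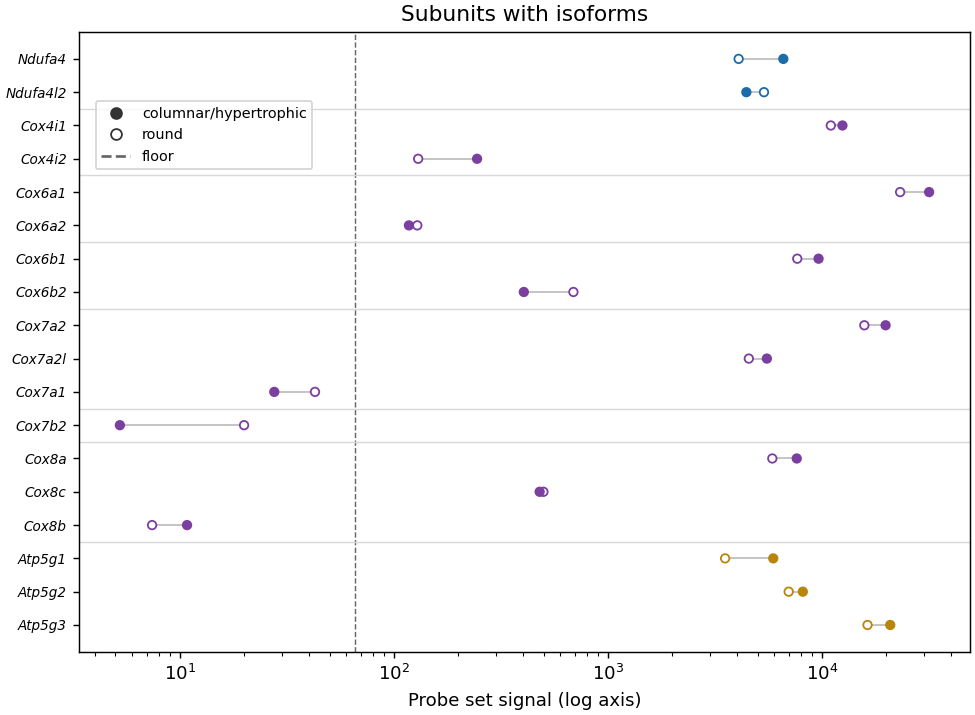
Probe set signals (log axis) of subunits with isoforms in the columnar/hypertrophic array (filled circles) and the round array (open circles), 1 array per zone, with the floor of 65.9 dashed. *Ndufa4* and *Ndufa4l2* lie on opposite sides, as do *Cox6b1* and *Cox6b2*, and the muscle isoforms *Cox7a1* and *Cox8b* are left of the floor.

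Some members had a dim probe set far from the bright ones. For *Ndufb2*, a dim probe set had 31.6, under the floor, in the columnar/hypertrophic zone against 260 in the round zone, a bound of -1.98, whereas the other 2 gave 0.27 and 0.36. *Uqcr10* gave 0.42 on its bright probe set and 0.03 and -0.85 on its 2 dim ones. *Ndufs4*, whose 4 compared probe sets ranged from -0.70 to 0.42, had 2611 in the columnar/hypertrophic zone against 2014 in the round zone on the bright one. In these genes the bright probe set sets the value given for the gene.

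Promoter sequences are shown for members on both sides of the comparison, to set the letters beside the direction. Nuclear subunit genes are known for promoter sites of NRF1, of ETS family factors such as GABPA, and of YY1. RefSeq windows of 300 bases on GRCm38.p6, from 250 before to 50 after the start, matched 66 of the 81 members by gene ID, in 71 windows. Motifs were searched on both strands. The NRF1 motif, GCGC and TGCGC with any base between them, was in 22.5% of member windows and 4.60% of all 32851 windows, and its form with A between them in 5.63% and 0.971%. The shorter GCATGC, which the form with A holds, was in 16.9% and 7.93%. The ETS motif CCGGAAG was in 23.9% of member windows and 8.86% of all windows, and the YY1 motif AAGATGGC in 12.7% and 2.75%. The hypoxia response element core ACGTG was in 26.8% of member windows and 19.6% of all windows, and the E box CACGTG, which holds it, in 9.86% and 7.15%. By direction, the compared genes with a window were 11 that exceeded their round signal by 1.5-fold or more, 46 other higher genes and 5 lower genes. The NRF1 motif with any base was in 2, 11 and 1 of them in that order, against 5.19% of all genes with a window. The ETS motif was in 5, 11 and 1, against 9.93%, and the YY1 motif in 1, 8 and 0, against 3.19%. The lower group is small, and a difference by direction was not tested. A match is a description of the letters and not a binding site.

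In the windows printed here, capitals mark the NRF1 motif, CCGGAAG, AAGATGGC and ACGTG on either strand. The first 3 genes exceeded their round signal by 1.5-fold or more, and the last 2 were under it. The windows are chr5:108434350-108434649 for *Atp5k*, chr10:80406772-80407071 for *Uqcr11*, chr19:44555393-44555692 for *Ndufb8*, chr4:116075021-116075320 for *Uqcrh* and chr7:4753045-4753344 for *Cox6b2*, all on the minus strand and printed in the direction of the gene.
*Atp5k* promoter: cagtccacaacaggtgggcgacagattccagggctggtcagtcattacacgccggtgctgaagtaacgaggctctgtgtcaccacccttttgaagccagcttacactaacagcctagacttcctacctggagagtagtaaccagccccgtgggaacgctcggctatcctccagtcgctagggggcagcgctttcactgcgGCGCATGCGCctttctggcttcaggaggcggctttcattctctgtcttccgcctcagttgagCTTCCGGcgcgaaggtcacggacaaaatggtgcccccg
*Uqcr11* promoter: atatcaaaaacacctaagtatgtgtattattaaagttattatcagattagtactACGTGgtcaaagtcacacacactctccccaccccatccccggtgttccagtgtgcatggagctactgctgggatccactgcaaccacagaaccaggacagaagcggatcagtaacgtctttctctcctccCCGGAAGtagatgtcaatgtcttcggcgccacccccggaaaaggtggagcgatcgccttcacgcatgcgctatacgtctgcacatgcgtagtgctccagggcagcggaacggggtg
*Ndufb8* promoter: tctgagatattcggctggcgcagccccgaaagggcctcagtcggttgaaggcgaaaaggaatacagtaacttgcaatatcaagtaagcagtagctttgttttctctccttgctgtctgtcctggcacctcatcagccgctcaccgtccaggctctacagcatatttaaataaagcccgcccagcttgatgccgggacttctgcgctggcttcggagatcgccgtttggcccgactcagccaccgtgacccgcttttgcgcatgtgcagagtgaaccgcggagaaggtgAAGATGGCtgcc
*Uqcrh* promoter: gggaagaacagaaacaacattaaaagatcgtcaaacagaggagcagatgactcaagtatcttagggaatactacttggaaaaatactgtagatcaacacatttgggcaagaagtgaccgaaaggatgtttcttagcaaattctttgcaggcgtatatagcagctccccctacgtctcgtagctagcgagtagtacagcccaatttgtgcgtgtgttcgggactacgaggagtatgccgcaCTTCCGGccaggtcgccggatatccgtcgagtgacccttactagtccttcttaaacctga
*Cox6b2* promoter: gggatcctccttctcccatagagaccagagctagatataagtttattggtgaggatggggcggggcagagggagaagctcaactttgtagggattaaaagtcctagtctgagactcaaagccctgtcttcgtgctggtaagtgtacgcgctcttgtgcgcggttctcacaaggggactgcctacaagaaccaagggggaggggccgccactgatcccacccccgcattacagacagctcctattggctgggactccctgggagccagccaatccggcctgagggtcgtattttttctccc
The NRF1 motif of *Atp5k* begins at -50 from the start, and its ETS motif at 13 on the other strand. *Uqcr11* holds the ETS motif at -66 and ACGTG at -196, and *Ndufb8* the YY1 motif at 39. *Uqcrh*, which was lower in the columnar/hypertrophic array, holds the ETS motif too, at -10 on the other strand. None of these letters is in the window of *Cox6b2*.

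Other mitochondrial genes were described from lists of the pathway. Of all compared genes, 46.8% were higher in the columnar/hypertrophic zone as deposited. Among genes outside the members with a mean signal of at least 1000, 56.2% were higher, with a median of 0.06. Electron carriers and subunits outside the symbol rule had a median log2 difference of 0.40, with 7 of 8 higher in the columnar/hypertrophic zone. *Cycs*, encoding cytochrome c, had a signal of 6681 in the columnar/hypertrophic zone against 3901 in the round zone, and *Cyc1*, the heme subunit of complex III, had 4045 in the columnar/hypertrophic zone against 2769 in the round zone. Of mitochondrial DNA genes, 1 was measured, *ND5*, with 21500 in the columnar/hypertrophic zone against 18172 in the round zone, a log2 difference of 0.24 (0.09 quantile-normalized, 0.07 lowess-centred). A further list held genes of mitochondrial membranes and carriers, and with them *Hspd1*, a matrix chaperonin gene. All 11 of its genes were higher, with a median of 0.37 (0.24 after quantile normalization and 0.21 after lowess centring). Among them *Slc25a5*, an ADP/ATP translocator gene, had 9699 in the columnar/hypertrophic zone against 4327 in the round zone, 2.24-fold. Citric acid cycle genes had 11 of 12 higher and a median of 0.22, led by *Suclg2* at 2666 in the columnar/hypertrophic zone against 1310 in the round zone. The electron carrier, membrane and carrier, and citric acid cycle lists had these counts of higher genes under all 4 scalings.

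Assembly factors, which build the complexes without staying in them, lay on both sides. The share of all compared genes higher in the columnar/hypertrophic zone was 46.8% as deposited. Under the other scalings it was from 51.3% to 54.6%. Of complex I assembly factors, 12 of 13 were higher, with a median of 0.20 (0.30 quantile-normalized, 0.31 lowess-centred), and *Tmem126b* was lower at 106 in the columnar/hypertrophic zone against 212 in the round zone. Of complex II and III assembly factors, 7 of 9 were higher, 4 of them by 1.5-fold or more, with a median of 0.37 (0.50 after lowess centring). The share of all genes 1.5-fold or more higher as deposited was 10.4%. Of 4 genes for complex V assembly and inhibition, 2 were higher as deposited and 3 after quantile normalization or lowess centring, with a deposited median of 0.0012. Of complex IV assembly factors, 9 of 14 were higher (10 under the other scalings), with a median of 0.18, among them *Cox17*, a copper chaperone gene, at 4829 in the columnar/hypertrophic zone against 2778 in the round zone. *Surf1*, another complex IV assembly gene, was on the other side at 1019 in the columnar/hypertrophic zone against 1398 in the round zone. Regulators of mitochondrial gene expression were divided, with 6 of 12 higher under each scaling and a median of -0.05, which was 0.04 after median centring. Among the lower ones, *Nrf1* had 405 in the columnar/hypertrophic zone against 580 in the round zone, and *Esrra* had 160 and 245 in that order. *Tfam*, the packaging factor of mitochondrial DNA, had 1314 in the columnar/hypertrophic zone against 1458 in the round zone, and *Gabpa* had 1695 and 1841. Among the higher ones, *Yy1* had 4523 in the columnar/hypertrophic zone against 4008 in the round zone. *Pprc1*, *Tfb1m*, *Tfb2m* and *Polg* were higher by 0.01 to 0.12 on the log2 scale. *Ppargc1a*, a coactivator of mitochondrial genes, was near the floor, at 79.3 in the columnar/hypertrophic zone against 54.9 in the round zone.

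**Figure D5:**
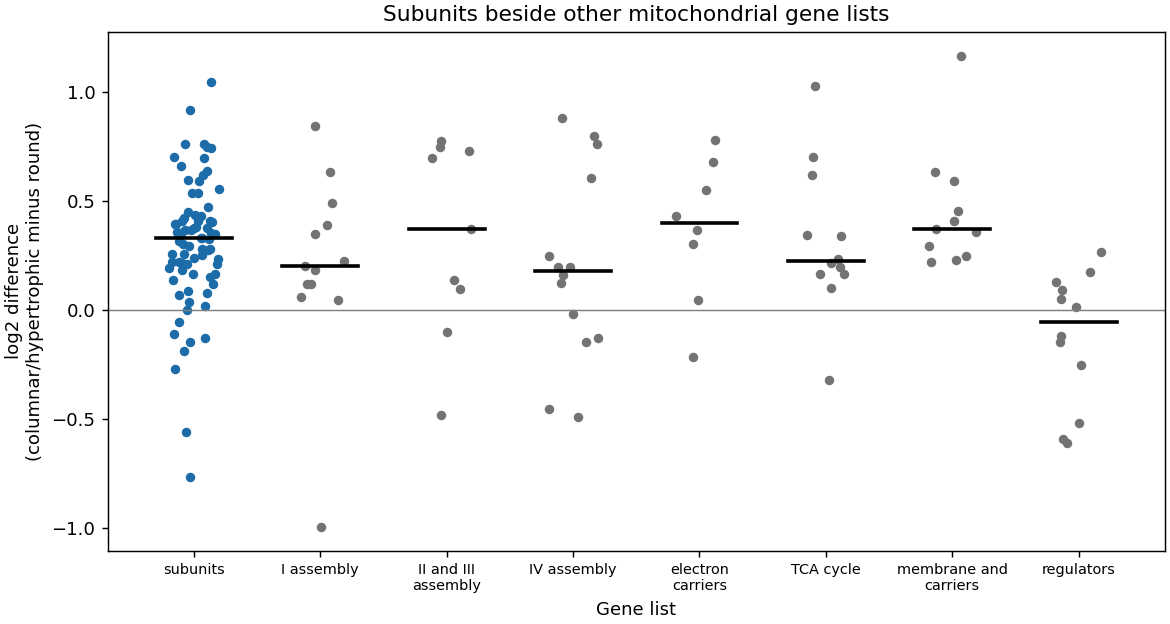
Log2 difference, columnar/hypertrophic minus round, of each compared gene in the subunit group and in lists of other mitochondrial genes, with black lines at the medians. The subunits (0.33), the carriers of electrons (0.40) and the membrane and carrier genes (0.37) lie mostly above 0, and the regulators, with a median of -0.05, lie on both sides.

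The specimens also differed in genes of other cells. Of 8 markers of perichondrium, tendon and fibroblasts, 7 were at least 2-fold lower in the columnar/hypertrophic array, with summed signals of 13637 in the columnar/hypertrophic zone against 70039 in the round zone. Of 6 cartilage genes used as markers of chondrocytes in general, 5 were higher, with a median of 0.34 (0.26 after quantile normalization and 0.16 with 4 higher after lowess centring). Summed signals of these 6 were 215963 in the columnar/hypertrophic zone against 172179 in the round zone. Erythroid markers had 0 of 3 above the floor in the columnar/hypertrophic array and 1 of 3 in the round array. The part of these differences in the higher subunit signals was not tested.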

How the data were processed

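The authors deposited linear intensities, 1 per probe set and array. MAS5 stands in the submitters' processing notes, and the methods name robust multiarray analysis for heatmaps, which gives log values not used here. Intensities reach 68899, and the number of arrays limits the precision. Symbols came from the platform annotation: 34945 probe sets had 1 symbol, 932 several and 9160 none. Of probe sets with several symbols, 9 matched the symbol rule and were left out. RefSeq identifiers changed 0 member symbols.

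Probe sets under the floor in both arrays were left out of the comparison. Where only 1 array was under it, the floor replaced that signal and the difference is a bound. Of 164 member probe sets, 152 were compared. Members named are core subunits, isoform sets, the 2 largest differences in each direction per complex, genes 1.5-fold apart and genes whose probe sets differ by 1 or more. Other genes come from pathway and marker lists. Those examples and further members were chosen after their values were seen. Members and lists were chosen with earlier results of these data known.

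Alternatives were median centring, quantile normalization, lowess centring (span 0.3), the mean over probe sets, floors of the 20th or 60th percentile or none, only probe sets not marked as able to match several transcripts (unmarked) and every probe set. Steps were tested on simulated data. The simulated arrays held no trend of the difference with signal, so they cannot show how a scaling handles the trend seen here. Python 3.11.15, numpy 2.4.6, pandas 2.3.3 and statsmodels 0.14.6 were used.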

Additional observations from a re-analysis of the deposited data

How the results depend on the processing

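No paired analysis was possible because a zone is represented by a single array, and for the same reason no replicate was left out. Of the summary values under the alternatives, 71 stayed and 28 moved, by over 0.1 on the log2 scale for medians or over 1.5 times for counts, and none of the medians changed sign. The cause was not tested. After quantile normalization and lowess centring the median log2 difference was 0.20 and 0.19 over all members, 0.30 and 0.28 in complex III, 0.16 and 0.17 in complex IV, and 0.19 and 0.19 in complex V, and 6 genes were at least 1.5-fold higher under each. With the mean over probe sets the median was 0.21 in complex II and 0.23 in complex III, 2 genes were 1.5-fold lower and 0 were 2-fold higher. On unmarked probe sets the complex III median was 0.0351, 3 genes were 1.5-fold lower, 1 was 2-fold lower and 0 were 2-fold higher. Median centring gave 2 genes at least 2-fold higher. With the floor at the 20th percentile 3 genes were 1.5-fold lower, and with no floor 4 were, 1 of them 2-fold. Counting every probe set, 152 were compared, 22 were 1.5-fold and 2 were 2-fold higher, 6 were 1.5-fold and 1 was 2-fold lower, and the complex III median was 0.14.

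On unmarked probe sets, *Uqcrq* turned to -0.24 and *Ndufb8* to -0.0704, both on dim probe sets. Of all 12761 compared genes, 1331 were 1.5-fold higher and 1953 lower as deposited. After quantile normalization these were 1633 and 1522 of 12762, and after lowess centring 1663 and 1471 of 12761.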
